A study of Homo sapiens with 6 samples.

Results

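The ATP-binding cassette (ABC) transporter superfamily was followed in PTX-resistant MDA-MB-231 BCSC with and without knockdown of the long noncoding RNA LINC00115. MDA-MB-231 cells come from a human breast cancer without hormone receptors or HER2 amplification, PTX is paclitaxel, and BCSC are breast cancer stem cells, obtained in the study by sorting for high aldehyde dehydrogenase activity. Members were taken by name: every gene of the deposited count table whose symbol starts with Abc, a subfamily letter from a to g and a digit. This gave 45 of 22989 genes, namely 13 of subfamily A, 10 of B, 9 of C, 4 of D, 1 of E, 3 of F and 5 of G. There were 3 RNA-seq libraries labelled LINC00115 KD (genotype LINC00115 knockdown) and 3 labelled WT, and the design asks how LINC00115 acts on the properties of BCSC. Knockdown was by short hairpin RNA (shRNA), both groups are described as PTX-resistant BCSC, and the labels name no drug treatment at harvest. The study's text calls its controls shC, a control shRNA, where the labels say WT, and it gives 1 of its plots to the hairpin sh115-2, while the KD libraries are labelled sh115-1, sh115-2 and sh115-3. Nothing states that the libraries of a group came from separate cultures, so the p-values measure the spread between these libraries, which may be technical.

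ABC proteins bind and split ATP and use the energy to carry a substrate across a membrane. Members of subfamilies B, C and G include the efflux pumps that remove drugs such as taxanes, anthracyclines and camptothecins from tumor cells. Subfamily A moves lipids, subfamily D serves peroxisomes and lysosomes, and several B members sit in mitochondria. Subfamilies E and F have the ATP-binding domains without membrane-spanning parts and act on ribosomes. In breast cancer the family is known for multidrug resistance, and ABCG2 pumps out the dye that defines the side population of stem-like cells.

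The libraries held between 36979221 and 38799331 counts. Gene symbols are written as for mouse genes. Of the 45 members, 39 equal a human gene symbol apart from case and 6 (Abca17, Abca8a, Abca8b, Abcb1a, Abcb1b and Abcg3) do not. Among these 6, Abcb1b had 3452 to 3954 counts in a library. A symbol that matches apart from case does not tell the species of the reads, which was not tested. Symbols are printed as the table gives them, without genome positions. The table lists 0 genes named LINC00115, so the knockdown could not be checked and each direction rests on the labels. Of 10 genes listed for the labelled cells, including the hormone receptors and Erbb2 (HER2), 7 were tested and 6 rose. Vim, Cd44, Krt8 and Krt18 had at least 4856 counts in every library, and their log2 fold changes were 0.13, -0.05 (adjusted p = 0.161), 0.67 and 0.87. Aldh1a1 had 8 to 17 counts in WT and 39 to 52 in KD libraries (1.82, adjusted p = 0.000925). Esr1 had 24 to 29 and 82 to 105 counts (1.87, adjusted p = 5.22e-06), and Erbb2 had 592 to 689 and 1029 to 1061 (0.70). Epcam had 0 to 5 counts, Aldh1a3 had 0 to 4 and Pgr had 0 to 3. Markers of other tissues differed between the groups too. Of 11 lung epithelium markers, 11 had all KD libraries above all WT libraries, with a summed level of 1.59 to 1.98 normalized CPM (counts relative to library totals that were scaled by the TMM method) in WT and 74.8 to 86.3 in KD libraries, and 7 of them, among them Scgb1a1 and Sftpc, had 0 counts in all WT libraries. The summed level of 10 kidney markers was 9.24 to 9.64 in WT and 24.7 to 28.9 in KD libraries, with 7 of 10 higher and Kap, Umod, Slc22a6 and Miox at 0 in all WT libraries. Cubn, most of the WT sum at 8.28 ± 0.132, fell to 6.07 ± 0.361 (log2 fold change -0.45, adjusted p = 0.00372), and the sum of the other 9 went from 1.11 to 1.30 in WT to 18.9 to 22.4 in KD libraries. For 10 leukocyte markers the summed level was 71.7 to 85.8 and 144 to 159, with 4 of 10 higher. Most of that rise was S100a8, which went from 33.0 ± 1.25 to 95.2 ± 6.33. Cd68, at 42.8 ± 7.38 and 47.2 ± 2.25, overlapped between the groups. Ptprc had 5 to 13 counts, Csf1r had 0 to 3, and Cd3e had 0 in every library. For 6 endothelial markers the summed level was 0.715 to 1.19 and 57.5 to 60.1, with 3 of 6 higher. Cdh5 was 0.221 ± 0.131 in WT and 57.8 ± 1.45, nearly all of the sum, in KD libraries, while Pecam1 had 6 to 19 counts and Tek 0 to 2. For 5 fibroblast markers the summed level was 173 to 193 and 75.6 to 77.4, nearly all from Pdgfra, with 0 of 5 higher. Of 8 liver markers chosen, 7 are in the count table. The summed level of these 7 was at most 0.354 in every library, with 1 of 7 higher and Alb at 0 or 1 count. The part of these markers of other tissues in the results on ABC genes was not tested. In RNA of many cells, fewer cells of a type and less RNA per cell cannot be told apart.

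ABC genes changed in both directions in KD libraries, and those past a fold change of 2 included the efflux pump gene Abcg2, which was higher, and Abcc10, which was lower. The 29 members that passed the expression filter were tested with all 13497 genes that did. At an adjusted p-value under 0.05 (edgeR's quasi-likelihood test, Benjamini-Hochberg adjustment over all genes tested), 15 members (51.7%) rose and 9 (31.0%) fell, where 36.7% of all genes tested rose and 36.7% fell. The other 5 did not pass. With the study's added threshold of a fold change over 2, 5 members (17.2%) were called higher and 2 (6.90%) lower, where 10.2% of all genes were called higher and 9.98% lower. The 5 were Abcg2, Abcb11, Abcb8, Abcc4 and Abcb1a, and the 2 were Abca8a and Abcc10. The median log2 fold change of the 29 members was 0.15, beside -0.01 over all genes tested. Members just inside the threshold were Abcc4, Abcb1a and Abcc10, and just outside it were Abcc3 and Abcd4. Groups did not overlap for 14 members with KD above WT and 8 with KD below, and 7 overlapped. Over all genes, 37.8% lay apart with KD above and 37.8% with KD below. The members had been chosen by name, and the filter keeps a gene that is counted in only 1 group. Abcg2 and Abcb11 passed it only through the KD libraries, where they are high. Of the 27 members with at least 10 counts in every library, 3 (11.1%) were called higher, where 7.55% of all 11966 such genes were.

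**Figure D1:**
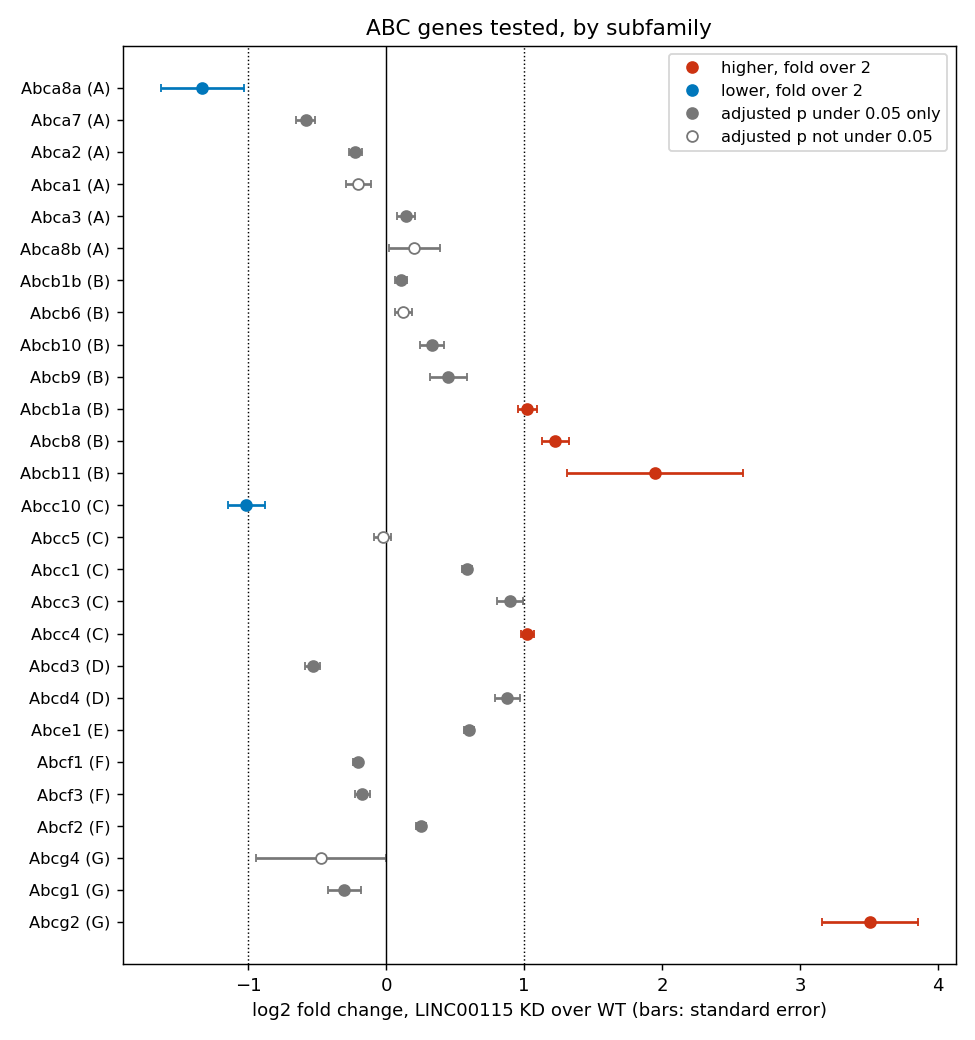
The log2 fold change of 27 of the 29 ABC genes tested, KD over WT, with its standard error, ordered by subfamily (letter in parentheses) and coloured by call; dotted lines mark a fold change of 2. Subfamily B lies to the right of 0 for every gene drawn, from 0.11 for Abcb1b to 1.95 for Abcb11, and Abcg2 lies farthest out at 3.51.

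The share of all counts taken by the 45 genes was 0.170%, 0.166% and 0.164% in the WT libraries and 0.197%, 0.202% and 0.197% in the KD libraries. Every KD library was above every WT library. In normalized CPM the summed level went from 1650 ± 18 to 2000 ± 27 (SD, n = 3 libraries each). Abcc1 and Abce1 made up 74.8% of that difference. Without them the sum was 1140 ± 13.3 in WT and 1230 ± 9.05 in KD libraries, a ratio of 1.08. These sums add counts of genes of unlike length, so they do not compare 1 gene with another.

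By subfamily, the summed level was higher in KD libraries for B (217 ± 7.45 against 287 ± 5.62 normalized CPM, ratio 1.32), C (399 ± 17.6 against 599 ± 8.94, ratio 1.5) and E (235 ± 7.60 against 356 ± 13.0, ratio 1.52). It was lower for A (213 ± 10.8 against 185 ± 4.77, ratio 0.871) and D (111 ± 4.82 against 97.2 ± 2.85, ratio 0.873). In these 5 subfamilies the groups did not overlap. Most of the difference in C was Abcc1, whose mean differed by 138, while that of Abcc10 differed by -6.02. Subfamily F stood at 466 ± 1.87 in WT and 462 ± 2.62 in KD libraries, although each of its 3 members passed the test, 1 upward and 2 downward. Subfamily G stood at 13.3 ± 2.36 and 14.3 ± 0.885, with overlapping groups. Of the members tested, 7 of 8 rose in subfamily B and 0 fell, 3 of 5 rose and 1 fell in C, and 3 of 6 fell and 1 rose in A, where 36.7% of all genes rose and 36.7% fell. Each of these shares rests on 5 to 8 genes. The 7 that rose in B include Abcb11, which passed the expression filter only through the KD libraries, where it is high.

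**Figure D2:**
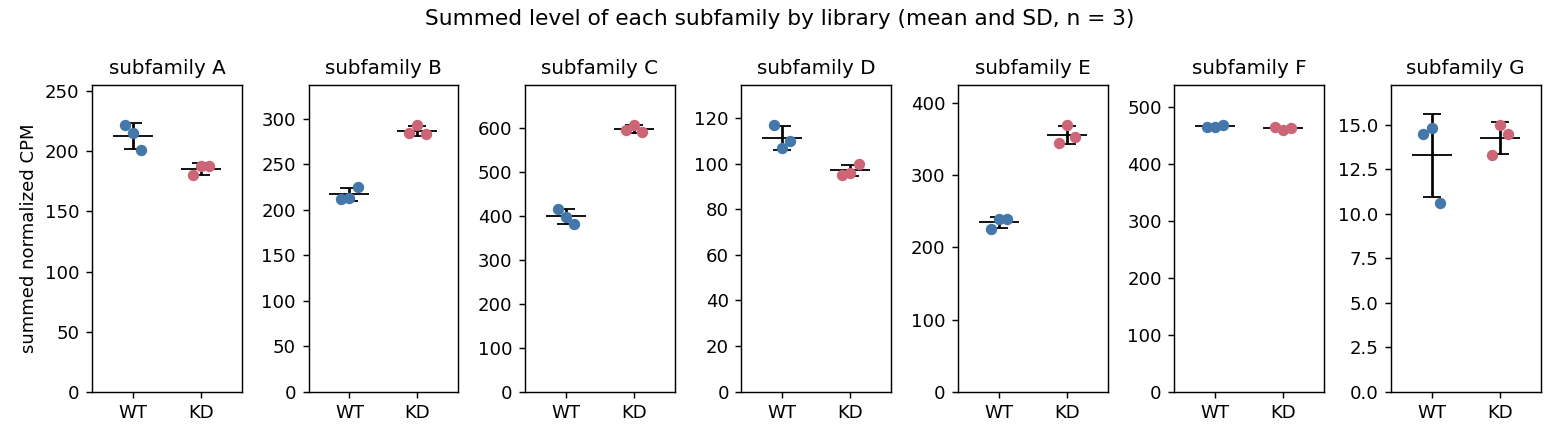
Summed normalized CPM of each subfamily in every library (points), with the mean and SD of 3 WT and 3 KD libraries (black); each panel has its own axis, which starts at 0. Subfamilies B, C and E lie higher in KD libraries, A and D lower, and F at 466 and 462 almost level.

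Among the drug efflux pumps, Abcg2, Abcc4, Abcb1a, Abcc3, Abcc1 and Abcb1b rose in KD libraries and Abcc10 fell. These are 6 and 1 of the 8 tested among 10 members grouped here as efflux pumps. The shares are 75.0% and 12.5%, beside 36.7% each way of all genes. The 6 include Abcg2, which passed the expression filter only through the KD libraries, where it is high. They also include Abcb1b, which missed the adjusted p threshold under 4 alternatives. The summed level of the 10 was 518 ± 16.4 normalized CPM in WT and 754 ± 14.9 in KD libraries. Most of that difference was Abcc1, whose mean differed by 138, while that of Abcc10 differed by -6.02. Abcg2, the breast cancer resistance protein, exports topotecan, mitoxantrone and urate. It had 15, 18 and 5 counts in the WT libraries and 143, 153 and 140 in the KD libraries, which is 0.336 ± 0.181 and 3.85 ± 0.275 normalized CPM (SD, n = 3 each). No library of 1 group reached the other, and Abcg2 was called higher (log2 fold change 3.51, standard error 0.35, adjusted p = 4.60e-11), an 11.4-fold difference. With each library left out in turn it lay between 3.13 and 3.85. Kidney tubules and endothelium also express this gene, and the summed kidney markers other than Cubn went from 1.11 to 1.30 in WT to 18.9 to 22.4 normalized CPM in KD libraries, while Cubn fell. Summed endothelial markers went from 0.715 to 1.19 in WT to 57.5 to 60.1, by Cdh5, while Pecam1 overlapped between the groups. Their part in the Abcg2 counts was not tested.

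Abcb1a and Abcb1b are the rodent names of a gene pair whose human counterpart is the single gene ABCB1, or MDR1. Its product, P-glycoprotein, exports paclitaxel and many other drugs. Abcb1a had 24.9, 21.9 and 25.3 normalized CPM in WT and 48.8, 50.4 and 47.4 in KD libraries. It was called higher (log2 fold change 1.02, standard error 0.07, adjusted p = 1.10e-15), just past the fold threshold, and missed that threshold without WT replicate 2 (0.96) and under upper quartile scaling (0.98). Abcb1b had 94.7, 91.4 and 99.0 in WT and 98.9, 108 and 101 in KD libraries. WT replicate 3 reached the lowest KD library. Its change was small (log2 fold change 0.11, standard error 0.05, adjusted p = 0.0318), and it did not pass without WT replicate 2 (adjusted p = 0.142), without KD replicate 2 (0.140), with upper quartile scaling (0.182) or with library size alone (0.0742). The count of Abcb1a per count of Abcb1b was 0.263, 0.239 and 0.256 in WT and 0.493, 0.468 and 0.469 in KD libraries. The log2 ratio differed by 0.92 between the groups (two-sided exact permutation test over libraries, p = 0.1, the smallest that 3 against 3 libraries allow). This ratio was looked at after the counts of both genes were seen. The handling of reads shared by such similar genes is not stated, so the split between them is uncertain.

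Subfamily C holds the multidrug resistance-associated proteins. Abcc4, which exports cyclic nucleotides and nucleoside analogs, had 55.5, 56.0 and 53.5 normalized CPM in WT and 113, 117 and 107 in KD libraries. It was called higher (log2 fold change 1.02, standard error 0.05, adjusted p = 8.58e-20), with wide space between the groups, but just missed the fold threshold under upper quartile scaling (0.98). Abcc3, which carries bile salts and glucuronides, rose from 12.9 ± 2.17 to 24.0 ± 1.08 (log2 fold change 0.90, standard error 0.10, adjusted p = 3.23e-10). WT replicate 2 was the highest of its group at 15.4, and without that library Abcc3 passed the fold threshold (1.05). Abcc1, the first described of these proteins and an exporter of glutathione conjugates, had 289, 275 and 264 in WT and 411, 420 and 411 in KD libraries. It rose (log2 fold change 0.58, standard error 0.04, adjusted p = 9.01e-17), a 1.5-fold difference, and had more counts than any other member, between 9990 and 15895 in a library.

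Abcc10 went the other way. It codes for a transporter that carries taxanes, and had 13.8, 12 and 9.95 normalized CPM in WT and 6.46, 5.31 and 5.92 in KD libraries. The groups were apart, and it was called lower (log2 fold change -1.01, standard error 0.13, adjusted p = 2.53e-08). Without WT replicate 1 (-0.89) or KD replicate 2 (-0.93) it missed the fold threshold. Abcc5, which also carries cyclic nucleotides, had 47.7, 40.2 and 41.9 in WT and 43.8, 42.1 and 41.9 in KD libraries, and did not pass (log2 fold change -0.02, standard error 0.06, adjusted p = 0.746). The other efflux members, Abcb5 and Abcc2, were not tested. Abcb5 had 0 to 1 count in WT and 0 to 6 in KD libraries. Abcc2, an apical exporter of conjugates in liver and kidney, had 1, 0 and 0 counts in WT and 6, 7 and 6 in KD libraries.

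**Figure D3:**
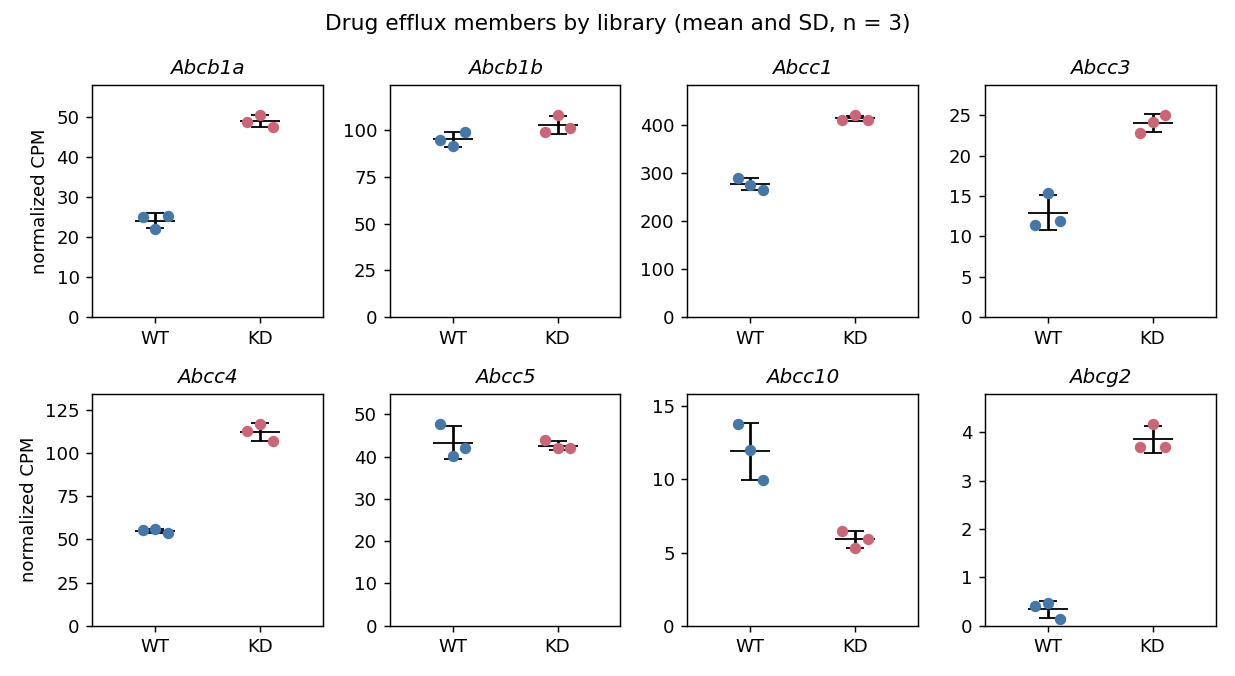
Normalized CPM of 8 drug efflux members in every library (points), with the mean and SD of 3 WT and 3 KD libraries (black); each panel has its own axis, which starts at 0. Abcb1a, Abcc1, Abcc3, Abcc4 and Abcg2 lie higher in every KD library, Abcc10 lies lower, and Abcb1b and Abcc5 overlap.

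The study follows HIF1 signaling, so the promoters of the members past the fold threshold were searched for the core of the HIF1 binding motif, ACGTG or GCGTG, on both strands. A CACGTG counts as 2 overlapping matches, 1 on each strand. The sequences are human RefSeq sequences (GRCh38.p14), the 250 bases before a transcript start, and were matched to 30 of the 45 members by symbol apart from case. Abca8a, Abcb1a and 13 others had no match. They describe the human genes, while the table's symbols are in mouse style. The motif was found before 21 of the 30 genes (70.0%) and before 16 of the 20 of them that were tested (80%). It was found before 3 of the 5 that were called (ABCC4, ABCC10 and ABCG2), and before 47.4% of all genes in the table of promoters. The 47.4% covers genes whether or not they were tested here, and a gene counted if any of its windows held the motif. No share over the genes tested was taken, so these shares do not compare like with like. ABCC4, called higher, and ABCC10, called lower, are shown because both hold it, and ABCB8, called higher, because its window does not. ABCC10 has 2 windows, of which the one farther upstream is printed and the other holds 0 matches. ABCG2 has 5, of which 3 hold the motif, and a stretch of 30 bases is printed around the CACGTG. Capitals mark the motif.
ABCC4, chr13:95301452-95301701, minus strand: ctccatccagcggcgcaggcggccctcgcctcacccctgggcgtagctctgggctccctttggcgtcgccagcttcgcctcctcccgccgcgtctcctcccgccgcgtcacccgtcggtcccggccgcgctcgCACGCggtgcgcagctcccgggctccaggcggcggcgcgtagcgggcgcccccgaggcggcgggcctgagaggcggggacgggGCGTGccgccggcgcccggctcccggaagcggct
ABCC10, chr6:43427291-43427540, plus strand: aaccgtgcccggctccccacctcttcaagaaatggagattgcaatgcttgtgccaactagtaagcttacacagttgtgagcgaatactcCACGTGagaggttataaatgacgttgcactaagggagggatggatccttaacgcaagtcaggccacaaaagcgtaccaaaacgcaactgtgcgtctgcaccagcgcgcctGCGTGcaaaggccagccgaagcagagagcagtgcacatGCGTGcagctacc
ABCB8, chr7:151028200-151028449, plus strand: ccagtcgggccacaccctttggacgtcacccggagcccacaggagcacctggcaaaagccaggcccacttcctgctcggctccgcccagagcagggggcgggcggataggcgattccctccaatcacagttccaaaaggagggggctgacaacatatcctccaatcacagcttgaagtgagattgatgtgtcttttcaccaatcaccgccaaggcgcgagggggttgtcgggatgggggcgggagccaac
ABCG2, chr4:88159013-88159042, minus strand: agcgcggcaggaCACGTGtgcgctttcagc
Members called higher and members called lower are among those with the motif, while ABCB8 and ABCB11, both called higher, have 0 matches. A match of letters is a description, not a binding site.

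Among the mitochondrial members of subfamily B, Abcb8 and Abcb10 rose in KD libraries and Abcb6 did not pass the test. Abcb8 of the inner membrane, which has roles in iron export and potassium transport, had 8.28, 10.5 and 9.95 normalized CPM in WT and 22.8, 21.5 and 22.9 in KD libraries. All KD libraries were above 20 and all WT libraries under 11, and it was called higher (log2 fold change 1.23, standard error 0.10, adjusted p = 1.75e-13). It was called under every alternative tried, with a range of 1.13 to 1.30 when single libraries were left out. Abcb10, which acts in heme synthesis, rose from 15.1 ± 0.575 to 19.0 ± 0.664 (0.33, standard error 0.09, adjusted p = 0.000991). Abcb6, named as a porphyrin transporter, did not pass: it stood at 37.7 ± 0.358 and 41.1 ± 2.24, with a change of 0.12 (standard error 0.06, adjusted p = 0.0679), and passed without KD replicate 3 (adjusted p = 0.0243).

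Of subfamily D, Abcd3 fell in KD libraries. Abcd3, which brings branched-chain and bile acid precursors into peroxisomes, had 72.1, 65.9 and 67.3 normalized CPM in WT and 47.6, 46.8 and 47.6 in KD libraries, with no overlap (log2 fold change -0.53, standard error 0.05, adjusted p = 5.65e-11). Abcd2, another peroxisomal member, had at most 5 counts. Pex19 and Pex3, which place ABCD proteins in the peroxisomal membrane, fell too, with log2 fold changes of -0.64 (adjusted p = 3.96e-13) and -0.21 (adjusted p = 0.0126).

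Abcd4 and Abcb9, which act in lysosomes, rose. Abcd4, needed for the release of cobalamin from lysosomes, had 15.8, 12.6 and 15.9 normalized CPM in WT and 25.5, 26.2 and 30.0 in KD libraries (log2 fold change 0.88, standard error 0.09, adjusted p = 1.29e-10). Its direction was opposite to that of Abcd3 in the same subfamily. Abcb9, a peptide transporter of lysosomes, rose from 6.37 ± 0.435 to 8.71 ± 0.443 (0.45, standard error 0.13, adjusted p = 0.00285).

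**Figure D4:**
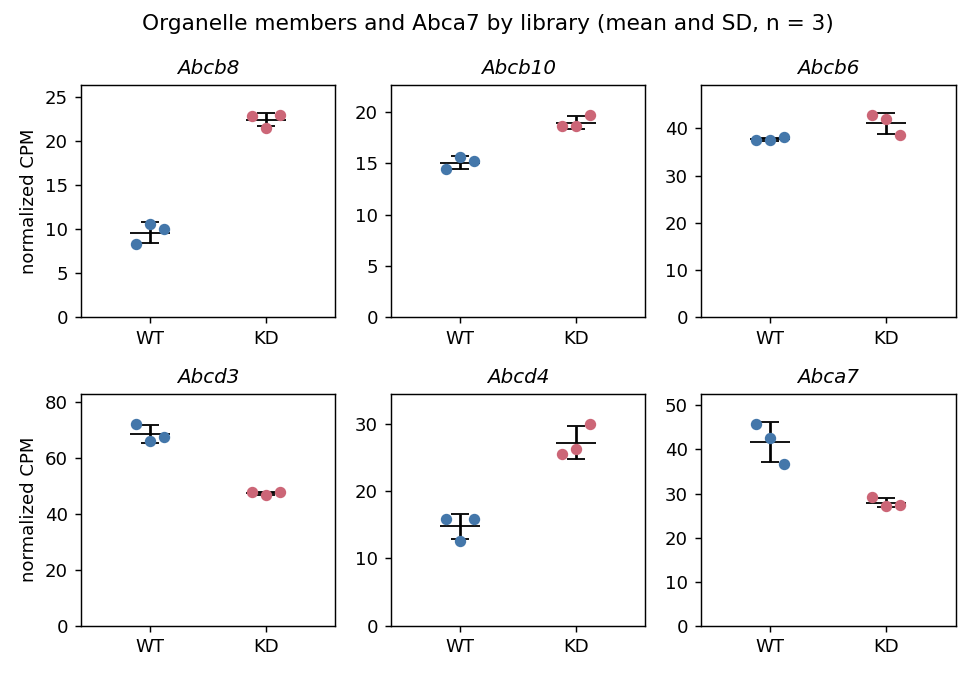
Normalized CPM of the mitochondrial members Abcb6, Abcb8 and Abcb10, the peroxisomal Abcd3, the lysosomal Abcd4 and the lipid transporter Abca7 in every library (points), with the mean and SD of 3 WT and 3 KD libraries (black); each axis starts at 0. Abcb8 lies under 11 in WT and above 20 in KD libraries, while Abcd3 and Abca7 lie lower in every KD library.

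Lipid exporters fell or did not pass the test. Abca7, which exports phospholipids, had 45.8, 42.7 and 36.8 normalized CPM in WT and 29.1, 27.2 and 27.4 in KD libraries. Every KD library was below every WT library (log2 fold change -0.58, standard error 0.07, adjusted p = 6.26e-09). Abca1, the exporter of cholesterol to apolipoprotein A-I, had 16.3, 19.5 and 20.5 in WT and 15.2, 17.1 and 16.7 in KD libraries. WT replicate 1 lay within the KD range, and Abca1 did not pass (log2 fold change -0.20, standard error 0.09, adjusted p = 0.0522). It did without WT replicate 1 (-0.29, adjusted p = 0.00622), with library size alone (0.0335) and with upper quartile scaling (0.0201). Abcg1, which moves cholesterol to mature high-density lipoprotein, fell from 12.1 ± 2.11 to 9.80 ± 0.387 (-0.30, standard error 0.12, adjusted p = 0.0229) with overlapping groups. It did not pass without WT replicate 1 (0.102), WT replicate 2 (0.150) or KD replicate 1 (0.0846), nor with DESeq2's Wald test (0.0689). Abcg4, its relative in the nervous system, had 39, 30 and 30 counts in WT and 10, 32 and 29 in KD libraries, and did not pass (-0.47, standard error 0.47, adjusted p = 0.370).

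Abca2, a lipid transporter of lysosomes and endosomes, fell from 106 ± 5.69 to 90.8 ± 3.75 normalized CPM (log2 fold change -0.22, standard error 0.05, adjusted p = 7.21e-05), without overlap. Abca3, which loads phospholipid into the lamellar bodies of lung cells that make surfactant, had 42.0, 37.2 and 36.9 in WT and 41.7, 40.7 and 46.2 in KD libraries. Its groups overlapped and its change was small (0.15, standard error 0.06, adjusted p = 0.0421). It did not pass without WT replicate 2 (adjusted p = 0.139), WT replicate 3 (0.155) or KD replicate 3 (0.240), nor with upper quartile scaling (0.147), library size alone (0.0813) or DESeq2's Wald test (0.0731). Sftpc, the defining marker of these lung cells, was at 0 in all WT libraries, where Abca3 had 1395 to 1584 counts, and at 520 to 589 counts in KD libraries. The part of such cells in the Abca3 counts was not tested. Abca8a and Abca8b, a rodent pair with the human counterpart ABCA8, parted. Abca8a had 107, 101 and 84 counts in WT and 45, 34 and 37 in KD libraries and was called lower (log2 fold change -1.33, standard error 0.30, adjusted p = 0.000197). Abca8b had 208, 126 and 173 counts in WT and 198, 221 and 166 in KD libraries (0.21, standard error 0.19, adjusted p = 0.323). The log2 ratio of their counts was lower by 1.56 in KD libraries (difference -1.56, exact permutation p = 0.1, the smallest possible here). As for the Abcb1 pair, shared reads leave the split uncertain, and the ratio was looked at after the counts were seen.

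The soluble members had at least 2256 counts in every library. Abce1, the factor that splits ribosomes after translation ends, had 226, 239 and 240 normalized CPM in WT and 345, 370 and 353 in KD libraries (log2 fold change 0.60, standard error 0.04, adjusted p = 9.20e-17). Abcf2 rose from 174 ± 5.72 to 207 ± 3.11 (0.26, standard error 0.04, adjusted p = 1.94e-07). Abcf1, which binds the initiation factor eIF2, fell from 224 ± 1.51 to 194 ± 0.941 (-0.21, standard error 0.04, adjusted p = 2.94e-06), and Abcf3 fell from 67.9 ± 4.26 to 60.3 ± 1.25 (-0.17, standard error 0.05, adjusted p = 0.00414). None of these 4 overlapped between the groups, and none reached a fold change of 2.

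At the low end, Abcb11, the bile salt export pump of the liver, had 4, 2 and 9 counts in WT and 15, 17 and 27 in KD libraries. No WT library reached 10 counts, so it entered the test only through the KD libraries. It was called higher (log2 fold change 1.95, standard error 0.64, adjusted p = 0.00694), which is no support for the count of members called, and it did not pass without WT replicate 2 (adjusted p = 0.0573) or KD replicate 3 (0.0503). The 16 members that were not tested had at most 9 counts in a WT library and at most 30 in a KD library. Abca4, the retinal transporter, had 6, 1 and 7 counts in WT and 8, 30 and 18 in KD libraries, and Abca13 had 0 in every WT library and 4, 7 and 7 in KD libraries. In normalized CPM, Abca4, Abca13, Abcc2 and Abcd2 were higher in every KD library, although Abcd2 had 1 count in both WT replicate 1 and KD replicate 2, and 0 of the 16 were lower in every KD library. The pancreatic and vascular channel regulators Abcc8 and Abcc9 had 0 to 3 counts in WT libraries, and Abcc8 had 3, 2 and 23 in KD libraries, so KD replicate 3 stood alone. Abca5, Abca6, Abca9, Abca12, Abca17, Abcb4, Abcc12, Abcg3 and Abcg5 had between 0 and 13 counts in every library.

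Family members under other names were not chosen by the rule. Tap1 and Tap2, which pump peptides into the endoplasmic reticulum for MHC class I, rose with log2 fold changes of 2.71 (standard error 0.05, adjusted p = 2.59e-32) and 1.72 (standard error 0.05, adjusted p = 1.44e-25). Cftr had 0 or 1 count in each library. Of 27 genes that regulate or partner ABC proteins, 22 were tested, 13 rose (59.1%) and 7 fell (31.8%), beside the 36.7% each way of all genes. Partners of Tap1 and Tap2 on that list went both ways. Tapbp (log2 fold change 0.81), Tapbpl (0.77) and B2m (0.11) rose, and Calr (-0.79) and Pdia3 (-0.775) fell. Nr1h2, which codes for the liver X receptor beta that switches on Abca1 and Abcg1, fell (log2 fold change -0.32, adjusted p = 2.98e-06), and Nr1h3, for the alpha form, did not pass (0.41, adjusted p = 0.0530). On the same list Rxra (0.40), Mylip (0.54) and Srebf1 (0.25) rose, Rxrb (-0.33) and Lpcat3 (-0.405) fell, and Apoe did not pass. Smpdl3a, not tested, had 0 counts in every WT library and 5 to 11 in KD libraries. Whether liver X receptor activity differed was not tested. Nr1i2 and Nr1i3, the drug-sensing receptors that switch on Abcb1 in liver, had 0 to 4 counts in each library. Npc2, which hands cholesterol on in lysosomes, was called higher (log2 fold change 1.19, adjusted p = 4.94e-27). Mvp, the major vault protein named in lung resistance, rose (0.45, adjusted p = 9.74e-12), and so did Hif1a (0.40, adjusted p = 1.11e-12). Kcnj8 and Kcnj11, the channel partners of Abcc8 and Abcc9, had 0 to 2 counts.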

How the data were processed

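RNA-seq of 6 libraries (3 KD, 3 WT) was used. The authors trimmed adapters, mapped reads with HISAT2 and deposited 1 table of raw read counts that lists 22989 genes. The methods name hg19, while the submitters' processing notes name hg38, featureCounts and DESeq2. Annotation and strand setting are not given in the sources used here. Each column was matched to its sample by name (columns not used: 0). Totals lay between 36979221 and 38799331 counts, and a count of 0 allows up to 3 counts, for counting error only.

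In R 4.3.3, edgeR 4.0.16 kept genes by filterByExpr (minimum count 10, total 15), scaled by TMM and tested the group effect by quasi-likelihood, with p-values adjusted over 13497 genes after Benjamini-Hochberg. Calls needed an adjusted p under 0.05 and a fold change over 2, as in the study's methods. Standard errors are the log2 fold change over the square root of F. The between-replicate coefficient of variation was 5.21%. In simulated counts for the KD against WT comparison, 200 of 200 changed genes were called (random seed 11). The changed genes were well counted and set well past the fold threshold. The simulation therefore does not cover calls near that threshold or on few counts. Counts of replicate libraries varied 3.94 to 7.96 times more than sampling alone gives (chi-square over its degrees of freedom), so none was a duplicate. Same-numbered KD and WT libraries did not deviate together (r = 0.0439, -0.00639 and -0.0167). Alternatives were other scalings (DESeq2's size factors, upper quartile, library size), no filter, at least 10 counts in every sample, DESeq2 1.42.0, a replicate block, no fold threshold and each library left out. The members, roles and lists were chosen with earlier results of these data known. Named with values are members called, members counted at least 100 times in each library of 1 group, Abcb1a, Abcb1b and Abcg2; others named (such as Abcg4, Abca13 and Abca4) were chosen after their values were seen. Some genes that meet this rule are counted in the totals but not reported here.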

Additional observations from a re-analysis of the deposited data

How the results depend on the processing

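Of 362 alternative values for the 28 members that meet the naming rule, 334 kept their direction and their side of both thresholds, 21 lost a threshold, 6 gained one and 1 changed sign: Abcc5, whose log2 fold change lay between -0.072 and 0.052 with a library left out, above 0 without WT replicate 1. The 5 of 29 members called higher became 3 with upper quartile scaling (Abcb1a and Abcc4 just under a fold change of 2), 3 of 27 with at least 10 counts in every sample (Abcg2 and Abcb11 removed), 9 of 45 with no low-count filter, 8 of 40 with DESeq2's Wald test and 15 without the fold threshold. In the first 4 of these settings 9.67%, 7.55%, 8% and 9.45% of all genes tested were called higher, beside 10.3%, 11.1%, 20% and 20% of members. The members added in the unfiltered and DESeq2 fits were Abca4, Abca13 and Abcc2, and Abcc8 in the former. The 2 called lower became 9 without the fold threshold, where 36.7% of all genes rose and 36.7% fell. With each library left out, 4 to 6 members were called higher and 1 to 2 lower (1 without WT replicate 1 and 1 without KD replicate 2, where Abcc10 was lost). In these fits 13.3% to 20% of members were called higher. Of all genes tested, 10.1% to 10.7% were called higher and 9.04% to 10% lower. At the adjusted p alone, 12 to 16 members rose and 8 to 9 fell, beside 36.7% of all genes each way with all libraries kept. The median log2 fold change of members was 0.332 with no filter, 0.34 with DESeq2, which bring in low-count genes, and 0.121 to 0.219 with a library left out. Over the members with at least 100 counts, a setting chosen after seeing the data, it was 0.177. With the replicate number as a block, 5 members were called higher and 2 lower, and 15 rose and 10 fell, Abca1 being added (adjusted p = 0.0458). Of all genes, 10.1% were called higher and 9.75% lower in that fit. The libraries share only a number. Depth limits the 16 members with at most 30 counts.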
